A study of Mus musculus with 16 samples.

Results

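The response of mouse hematopoietic stem cells to dmPGE2 was measured in the libraries that carry the earlier of the 2 dates in the sample descriptions. These were chosen by the date in the column names of the deposited count table and came to 8 of 16 libraries, from 4 of 8 mice. Hematopoietic stem cells are the rare bone marrow cells that renew themselves and give rise to all blood lineages. Mice 477 and 478 were young and mice 479 and 480 were old. Bone marrow of each mouse was taken fresh, divided, held for 1 h at 37 °C with dmPGE2 or with vehicle, and the stem cells were then sorted and their RNA extracted, so the whole marrow met the compound before the sort. The 4 groups were therefore young vehicle, young dmPGE2, old vehicle and old dmPGE2, with 2 libraries each. Both libraries of a mouse came from the same marrow, and the incubation, sort and extraction followed its division. The sources used here do not give the strain, genotype, age in months, dose or sort markers, nor the step that the date marks.

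Prostaglandin E2 is a lipid signal made by the cyclooxygenases, and dmPGE2 is a dimethyl analogue that is broken down more slowly. It is known for raising the number and the engraftment of blood stem cells. The EP2 and EP4 receptors, encoded by Ptger2 and Ptger4, couple to the G protein Gs, which activates adenylyl cyclase. The cAMP formed releases protein kinase A, which phosphorylates the transcription factor CREB, and CREB binds the sequence TGACGTCA or its shorter form TGACG near the start of its target genes. Genes that already have a poised promoter, the immediate-early genes, then change within minutes, and among them are many that encode brakes on the same signal.

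Sequences before the start of 6 genes are shown first because the genes below include many that are taught as CREB targets. Each window holds the 250 bases before the annotated start, 5′ to 3′ on the gene's strand, from RefSeq on build GRCm38.p6. Capitals mark TGACG and its reverse complement CGTCA, and in Btg2 the whole TGACGTCA. Btg2, Nr4a1, Nr4a2, Nr4a3 and Fosb rose in the data below, and Mycn, which has no such match in the window, fell. The windows are chr1:134079156-134079405 on the minus strand (Btg2), chr15:101266596-101266845 on the plus strand (Nr4a1), chr2:57124004-57124253 on the minus strand (Nr4a2), chr4:48045055-48045304 on the plus strand (Nr4a3), chr7:19310046-19310295 on the minus strand (Fosb) and chr12:12941837-12942086 on the minus strand (Mycn).
Btg2: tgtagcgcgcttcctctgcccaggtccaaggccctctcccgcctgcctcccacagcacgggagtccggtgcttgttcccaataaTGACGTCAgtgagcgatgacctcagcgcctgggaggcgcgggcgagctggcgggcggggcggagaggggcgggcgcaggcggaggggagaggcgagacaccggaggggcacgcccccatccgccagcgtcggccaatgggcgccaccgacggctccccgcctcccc
Nr4a1: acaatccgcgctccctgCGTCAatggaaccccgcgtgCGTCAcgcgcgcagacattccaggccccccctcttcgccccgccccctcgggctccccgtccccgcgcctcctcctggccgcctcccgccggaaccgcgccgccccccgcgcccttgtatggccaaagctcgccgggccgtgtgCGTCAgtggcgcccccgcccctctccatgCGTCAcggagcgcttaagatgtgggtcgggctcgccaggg
Nr4a2: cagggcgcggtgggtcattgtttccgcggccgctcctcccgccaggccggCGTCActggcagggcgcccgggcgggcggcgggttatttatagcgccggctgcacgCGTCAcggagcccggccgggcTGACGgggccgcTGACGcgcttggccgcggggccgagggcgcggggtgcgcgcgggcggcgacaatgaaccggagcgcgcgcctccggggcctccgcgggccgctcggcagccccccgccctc
Nr4a3: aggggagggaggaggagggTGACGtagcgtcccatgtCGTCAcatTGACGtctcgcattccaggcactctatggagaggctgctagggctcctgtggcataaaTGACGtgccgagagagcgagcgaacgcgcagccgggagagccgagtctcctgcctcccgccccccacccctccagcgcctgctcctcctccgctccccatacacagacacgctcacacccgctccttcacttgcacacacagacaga
Fosb: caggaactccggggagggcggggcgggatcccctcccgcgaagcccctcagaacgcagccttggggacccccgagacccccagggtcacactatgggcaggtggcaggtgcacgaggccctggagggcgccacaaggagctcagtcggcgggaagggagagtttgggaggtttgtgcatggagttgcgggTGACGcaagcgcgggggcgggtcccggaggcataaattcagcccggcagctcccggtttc
Mycn: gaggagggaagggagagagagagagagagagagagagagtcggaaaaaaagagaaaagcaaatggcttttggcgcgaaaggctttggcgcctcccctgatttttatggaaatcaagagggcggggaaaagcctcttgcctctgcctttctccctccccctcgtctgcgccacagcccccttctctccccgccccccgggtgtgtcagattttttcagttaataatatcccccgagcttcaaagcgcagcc
Over all promoters matched in RefSeq (305 of 398 genes that rose, 93 of 123 that fell, 10092 of 13250 tested, both strands searched), TGACGTCA was found before 27 genes that rose (8.85%), 1 that fell (1.08%) and 310 of all tested (3.07%). The short site TGACG, which the full site contains, was found in 52.8%, 25.8% and 30.4%. The AP-1 sequence TGANTCA, the site of FOS and JUN dimers, was found in 9.51%, 3.23% and 5.49%. TGGGAA, the core of the site of the Notch effector RBPJ, was found in 18.4%, 30.1% and 23.8%, and the CArG box, the site of serum response factor, in 2.30%, 1.08% and 1.45%. Genes that rose had 1.35 windows each, those that fell 1.15 and all tested 1.27, since some genes have several starts, and a gene was counted where any window matched. These are descriptions of letters with no test.

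The 8 libraries held between 16668507 and 19226963 counts. Where a gene had no read, the limit that 3 counts set was 0.156 to 0.180 CPM (counts scaled to a library of 1e6), for counting error only. The cells carried the RNA their label names: all 15 stem cell markers were detected, with a summed level of 5881 to 7112 CPM in vehicle and 6046 to 7139 with dmPGE2. Neutrophil markers summed to 231 to 455 CPM in vehicle and 257 to 469 with dmPGE2, against 2380 to 4935 in the vehicle libraries of the second date. Pax5 of B cells, Klrd1 of NK cells and Cma1 of mast cells were at 0 in all 8 libraries, but other members of their lists were detected. In vehicle, B cell markers summed to 351 to 1191 CPM, with Cd74 the highest. T and NK cell markers summed to 93.6 to 199 CPM, and mast cell and basophil markers to 13.7 to 28.6 CPM. Of 9 marker lists of stem cells and other cell types, with 5 to 15 tested genes each, 1 gene was called for dmPGE2 by edgeR. It was Tfrc, the transferrin receptor, 1 of 12 tested erythroid markers, which is named below. Over all tested genes 3.93% were called, and lists this short cannot be set apart from that share. DESeq2 called 2 of 5 tested T and NK cell markers and 1 of 13 monocyte and macrophage markers, where limma-voom called 0. Of those 13, 9 had a log2 value below 0 and 6 were at an unadjusted p under 0.05. In RNA of sorted pools, fewer cells of a type and less RNA per cell cannot be told apart.

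The main comparison asked which genes dmPGE2 changed within the mouse. After 1 h of incubation and the sort that followed, 398 genes were higher and 123 lower of 13250 tested (3.0% and 0.928%). Together these were 521 genes or 3.93% (quasi-likelihood test of edgeR with mouse as a block, 4 pairs, adjusted p under 0.05). The rises were larger than the falls: 166 genes rose at least 2-fold, 74 at least 4-fold and 37 at least 8-fold, whereas 10 fell at least 2-fold and 0 at least 4-fold. The median log2 change was 0.78 among the genes that rose, -0.52 among those that fell and -0.01 over all tested. Genes that rose took 3.70 to 5.04% of all counts in vehicle and 7.30 to 10.2% with dmPGE2, and those that fell took 1.27 to 1.62% and 0.942 to 1.05%. All 398 rose in 4 of 4 mice and all 123 fell in 4 of 4, against 13.2% of all tested genes in each direction. The 4 vehicle and 4 dmPGE2 libraries did not overlap for 311 of the 398 (all tested, 4.65%) and for 90 of the 123 (all tested, 3.37%). The genes were called from these same 4 pairs, so both kinds of agreement follow in large part from the calling. They are descriptions and not a test.

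Without mouse as a block 190 genes were called (166 higher, 24 lower), and 280 without mouse 480, 343 without 477, 353 without 479 and 590 without 478. A mouse left out of the fit gave an independent reading of the genes called in the other 3. Of the 252 genes called higher without mouse 480, 251 were higher in it, and of 28 called lower all 28 were lower (all tested genes, 49.7% and 50.2%). For mouse 477 the counts were 285 of 291 and 52 of 52, for mouse 479 they were 290 of 297 and 55 of 56, and for mouse 478 they were 409 of 429 and 138 of 161. The median log2 change of the genes called higher without the mouse was 0.63 in mouse 478 and 0.90 to 1.10 in the others.

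**Figure D1:**
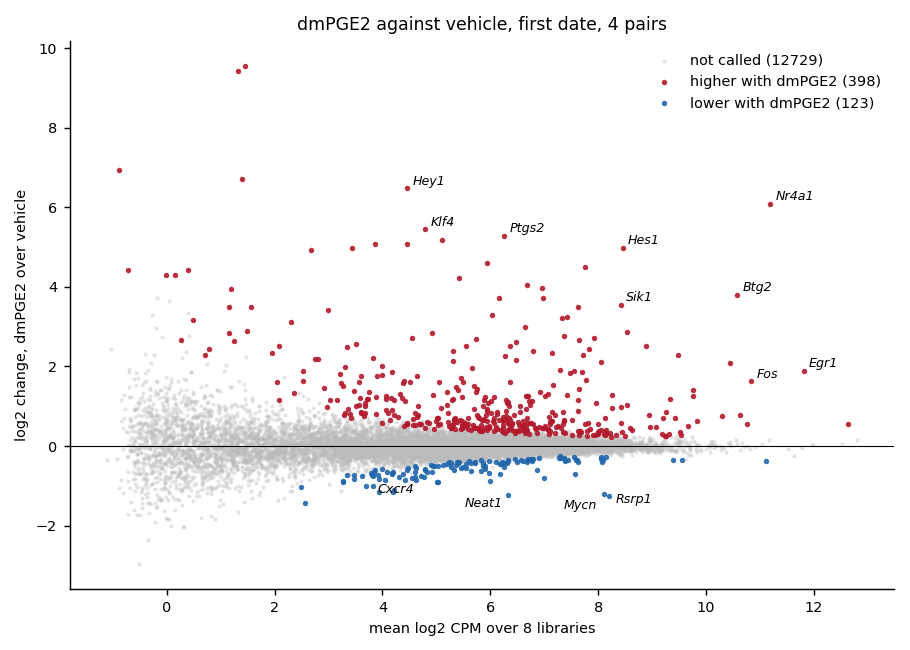
The log2 change with dmPGE2 (vertical axis) against the mean log2 CPM (horizontal axis) of each of 13250 tested genes on the first date, over 4 pairs of libraries. The 398 genes called higher reach far above the 123 called lower, whose points lie between -1.43 and -0.26; the fitted values of the genes at 0 in vehicle at the top left depend on the fit's prior count.

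At the receiving end, 3 of the 4 receptors of prostaglandin E2 were tested and none of them was called by edgeR, DESeq2 or limma-voom. Ptger4, the Gs-coupled EP4 receptor, stood in vehicle at 90.3 and 71.5 CPM in the young mice and at 213 and 245 CPM in the old ones. With dmPGE2 it stood at 86.6, 99.3, 175 and 200.1 CPM in the same order of mice. The log2 change was -0.05 ± 0.11 (SE, n = 4 pairs; adjusted p = 0.873), and the levels of both arms were higher in the old mice. Ptger1 and Ptger3, which encode EP1 and the mainly Gi-coupled EP3, had log2 values of 0.15 ± 0.09 and -0.02 ± 0.07. Ptger2, the other Gs-coupled receptor, was at 0 in 5 of 8 libraries and at 0.166 to 0.755 CPM in the rest, and did not pass the filter on low counts. Per kilobase of exon, vehicle means were 48.3 CPM for Ptger3, 46.6 for Ptger4 and 26.6 for Ptger1. None of 25 genes for Gs, adenylyl cyclases, protein kinase A subunits, CREB and its coactivators was called by edgeR, with log2 values from -0.44 to 0.31. Over all tested genes 3.93% were called, so 0 of 25 does not stand apart from that share. In that list 4 were at an unadjusted p under 0.05, and DESeq2 called 3 and limma-voom 2.

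Of 21 tested genes of cAMP breakdown and feedback 3 rose (14.3%, against 3.0% of all tested): Sik1, Crem and Pde4b. Sik1 encodes a kinase that holds back the CREB coactivators. Its level in vehicle was 43.7 and 37.1 CPM in the young mice and 65.8 and 72.0 in the old ones, and with dmPGE2 518, 502, 731 and 764 CPM in the same mice. The lowest dmPGE2 library stood well above the highest vehicle library, and the rise was 11.7-fold (log2 3.55 ± 0.07 SE, n = 4 pairs, adjusted p = 8.29e-11). Crem, which also gives rise to the cAMP early repressor ICER, was at 5.69 to 7.83 CPM in the vehicle libraries and at 15.7 to 28.7 with dmPGE2 (3.37-fold, log2 1.75 ± 0.21, adjusted p = 0.000269). Pde4b, a phosphodiesterase that breaks cAMP down, was at 181 to 239 CPM in vehicle and at 327 to 506 with dmPGE2 (1.94-fold, log2 0.95 ± 0.06, adjusted p = 2.07e-06). Groups did not overlap for any of the 3, nor for 311 of all 398 genes that rose (all tested, 4.65%).

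Of 26 tested genes taught as cAMP-CREB targets, 22 rose and 1 fell (84.6% higher, against 3.0% of all tested genes). The median log2 change was 1.76 against -0.01 over all tested genes. This and the other lists were chosen with earlier results of these data known, so their counts are descriptions and not tests. The 3 NR4A orphan nuclear receptors, transcription factors that act without a known hormone, were among the largest rises. Nr4a1 stood in vehicle at 46.8 and 36.2 CPM in the young mice and at 113 and 91.4 CPM in the old ones. With dmPGE2 it stood at 3556, 3421, 5565 and 5785 CPM, a 68.3-fold rise (log2 6.09 ± 0.14 SE, n = 4 pairs, adjusted p = 1.84e-10). The lowest dmPGE2 library stood far above the highest vehicle library. Nr4a2 rose 11.3-fold, from 30.7 ± 13.1 to 366 ± 205 CPM (SD, n = 4), and Nr4a3 rose 31.7-fold, from 0.689 ± 0.557 to 21.0 ± 11.6 CPM. All 3 have 4 copies of the short site in the windows printed above. The clock gene Per1 rose 3.08-fold (39.7 ± 9.99 to 124 ± 39.5 CPM) and Irs2, an adaptor of the insulin receptor, rose 2.40-fold. Cited2, a transcriptional co-regulator of stem cell quiescence, was the member that fell, from 235 ± 45.7 to 144 ± 34.2 CPM (log2 -0.71 ± 0.07, adjusted p = 6.28e-05).

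**Figure D2:**
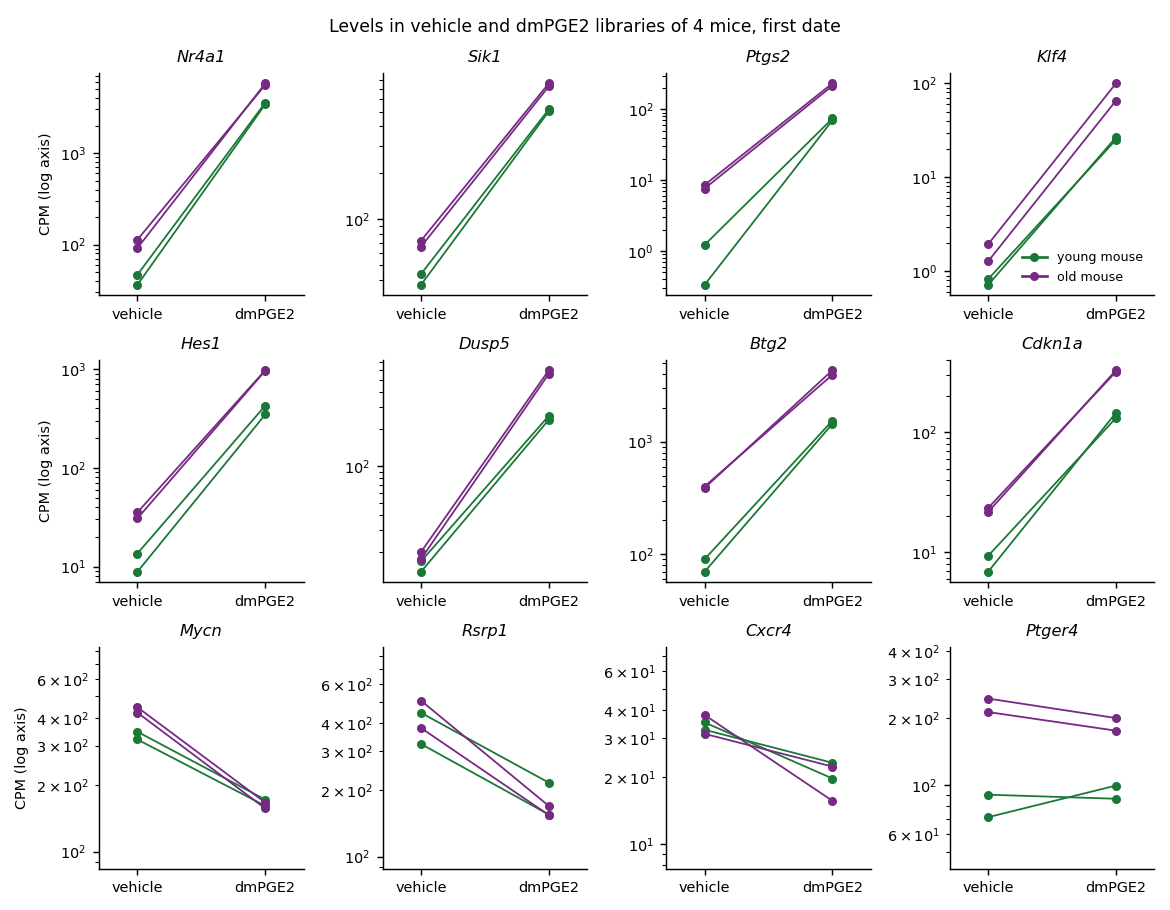
Levels of 12 genes in the vehicle and dmPGE2 libraries of the 4 mice of the first date, in CPM on a log axis, with a line for each mouse (green, young; purple, old). Lines of the 8 upper genes rise in every mouse, those of Mycn, Rsrp1 and Cxcr4 fall in every mouse, and Ptger4 moves by less than its spread between mice.

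Immediate-early transcription factors moved together. Of 15 AP-1 and ATF genes 12 rose and 0 fell (median log2 1.44), and of 12 EGR and serum response genes 9 rose (median 1.44). Of 12 Kruppel-like factors 7 rose (median 0.63), where 3.0% of all tested genes rose. Fosb, a partner in AP-1, was at 2.26, 4.01, 5.34 and 8.37 CPM in vehicle and at 86.8, 84.8, 117 and 181 CPM with dmPGE2 (24.1-fold, log2 4.59 ± 0.14, adjusted p = 2.1e-09). Fosl2 rose 13.1-fold, from 18.6 ± 9.78 to 234 ± 97.3 CPM, and Junb 4.22-fold, from 572 ± 325 to 2217 ± 788 CPM (SD, n = 4). Atf3, a stress-induced repressor, was at 0.110, 0.110, 3.25 and 0.721 CPM in vehicle and at 13.1, 14, 43.3 and 42.2 CPM with dmPGE2 (33.6-fold). Fos itself started high, at 519, 535, 1179.7 and 1670.5 CPM, and reached 2281, 2329, 2800.3 and 3364 CPM (3.09-fold, log2 1.63 ± 0.19, adjusted p = 0.00252). The call for Fos was lost without mouse 478 (log2 1.46, adjusted p = 0.287).

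Egr1, a zinc finger factor that restrains stem cell proliferation and exit from the marrow, rose 3.73-fold from 1584 ± 743 to 5585 ± 1665 CPM. Egr3 rose 18.8-fold, from 4.99 ± 4.96 to 81.0 ± 58.4 CPM, and Egr2 7.23-fold. For all 3 genes, both old mice stood above both young ones in each arm. Klf4, one of the reprogramming factors, was at 0.717, 0.825, 1.28 and 1.94 CPM in vehicle and at 26.7, 25.2, 65.6 and 100.1 CPM with dmPGE2 (43.6-fold, log2 5.44 ± 0.17, adjusted p = 2.71e-09). Klf2, a factor of lymphocyte and endothelial quiescence, rose 5.42-fold from 74.0 ± 45.6 to 383 ± 203 CPM.

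Genes that brake signalling formed the next group. Of 16 tested MAP kinase phosphatase and Sprouty genes 10 rose (62.5%, against 3.0% of all tested) and 0 fell. Their median log2 change was 1.02. Dusp5, which acts on ERK in the nucleus, was at 16.8, 13.9, 17.6 and 20.1 CPM in vehicle and at 256, 238, 561 and 599.9 CPM with dmPGE2 (22.5-fold, log2 4.49 ± 0.17, adjusted p = 1.13e-08). The mice were alike in vehicle, and with dmPGE2 the old mice stood above the young ones. Dusp6, its cytoplasmic counterpart, rose 2.42-fold from 100.5 ± 16.8 to 242 ± 28.1 CPM. Spry2, an inhibitor of receptor tyrosine kinases, rose 4.05-fold from 6.59 ± 3.04 to 25.2 ± 3.94 CPM. Dusp8 is counted here at 0 to 0.166 CPM in vehicle and 0.887 to 4.09 CPM with dmPGE2, and its call was lost without mouse 480 (adjusted p = 0.0618).

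Among 14 RGS proteins and small GTPases of the RGK and Rnd families, 5 rose (35.7%, against 3.0% of all tested). Their median log2 change was 0.59, and 0.30 without mouse 480. Rgs2, which shortens the signal of G proteins, was at 75.8, 67.7, 57.7 and 57.3 CPM in vehicle and at 464, 413, 416 and 388 CPM with dmPGE2 (6.53-fold, log2 2.71 ± 0.07, adjusted p = 4.27e-10). Its level differed little between young and old mice in either arm. Rgs1 rose 5.74-fold to 804 ± 47 CPM, a call lost without mouse 478 (log2 2.42, adjusted p = 0.0789). Of 16 genes of JAK-STAT feedback 4 rose (25.0%, against 3.0% of all tested). They were led by Socs3, an inhibitor of cytokine receptor signalling, which rose 9.39-fold from 36.4 ± 27.5 to 285 ± 111 CPM. That call was also lost without mouse 478 (log2 2.98, adjusted p = 0.0739). Of the other members called, Cish was lost without mouse 479 or 480 (adjusted p = 0.0556 and 0.0734) and Socs4 without 477 or 480 (adjusted p = 0.0587 and 0.0745). Of 17 NF-kB genes 3 rose (17.6%) and 2 fell, against 3.0% and 0.928% of all tested. Nfkbid, a nuclear regulator of NF-kB, rose 7.96-fold from 23.9 ± 12.7 to 176 ± 47.4 CPM. Nfkbia, which encodes the inhibitor IkB alpha, fell slightly (log2 -0.34 ± 0.06, adjusted p = 0.00737), a call lost without mouse 480 (adjusted p = 0.0860).

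**Figure D3:**
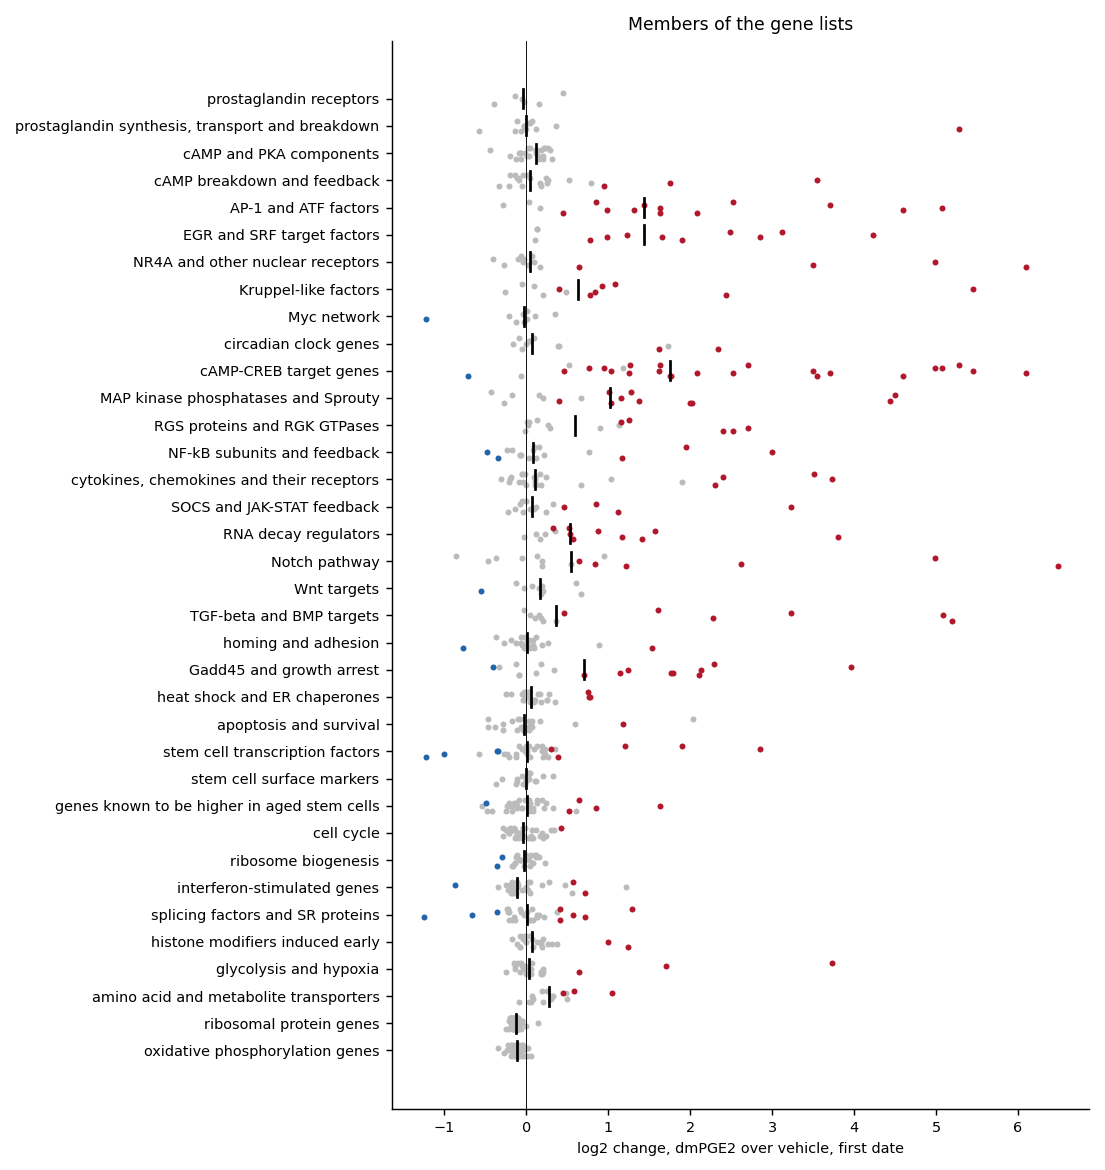
The log2 change with dmPGE2 on the first date (horizontal axis) of every tested member of the gene lists other than cell type markers (rows), with black bars at the medians. Red points are genes called higher, blue points genes called lower and grey points genes not called; red points fill the AP-1, EGR and cAMP-CREB rows and are absent from the rows of receptors, cAMP components, stem cell surface markers and ribosomal proteins.

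Genes that end the life of an mRNA also rose: 9 of 14 tested regulators of RNA decay (64.3%, against 3.0% of all tested), with a median log2 change of 0.53. Btg2, which recruits the deadenylase and slows proliferation, stood in vehicle at 90.3 and 69.8 CPM in the young mice and at 399.7 and 388 CPM in the old ones. With dmPGE2 it stood at 1538, 1438, 3934 and 4314 CPM, a 13.9-fold rise (log2 3.80 ± 0.15, adjusted p = 1.87e-08). Zfp36, which binds AU-rich elements of cytokine mRNAs, rose 2.66-fold from 485 ± 231 to 1245 ± 447 CPM. Of 17 growth arrest and stress genes 9 rose (52.9%) and 1 fell, against 3.0% and 0.928% of all tested (median log2 0.70). Cdkn1a, the cyclin-dependent kinase inhibitor p21, was at 6.89, 9.35, 23.5 and 21.7 CPM in vehicle and at 146, 132, 321 and 331 CPM with dmPGE2 (15.6-fold, log2 3.96 ± 0.11, adjusted p = 7.37e-10). Ppp1r15a, which helps to restart translation after stress, rose 4.89-fold from 256 ± 127 to 1171 ± 338 CPM. Of 37 cell cycle genes 1 rose (2.7%, against 3.0% of all tested), which is near the share over all genes. It was Rb1, the retinoblastoma protein (log2 0.42 ± 0.10, adjusted p = 0.0325). The call for Rb1 was lost without mouse 477, 479 or 480 (adjusted p = 0.150, 0.0795 and 0.183). Ccnd1 (cyclin D1) had a log2 value of 0.20 ± 0.14 and Birc5 (survivin) of -0.28 ± 0.12, neither called.

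Genes taught as targets of 2 cell fate pathways were among the largest rises. Whether the pathways themselves were active was not tested. Of 15 Notch pathway genes 6 rose and 0 fell, with a median log2 change of 0.55, and 0.27 without mouse 478. Hes1, a repressor and the classic Notch target, was at 13.6 and 8.85 CPM in vehicle of the young mice and at 35.4 and 30.8 CPM in that of the old ones. With dmPGE2 it was at 427, 348, 976 and 966 CPM (31.8-fold, log2 4.99 ± 0.09, adjusted p = 2.58e-11). Hey1, a related repressor, was at 0.222 to 0.871 CPM in vehicle and at 27.1 to 56.7 CPM with dmPGE2. Its 89.4-fold rise (log2 6.48 ± 0.24, adjusted p = 1.13e-08) was the largest among named genes with a mean log2 CPM of at least 2. Nrarp, a feedback inhibitor of Notch, rose 6.16-fold from 24.9 ± 7.42 to 154 ± 47 CPM. The ligands Dll4, Jag1 and Jag2 were called at log2 1.22, 0.84 and 0.64.

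Of 13 TGF-beta and BMP targets 6 rose (46.2%, against 3.0% of all tested) and 0 fell (median log2 0.37). Id1 and Id3, which encode inhibitors of bHLH factors and are induced by BMP signals, rose 36.5-fold and 34.0-fold. Id1 was at 1.43, 2.20, 1.74 and 1.5 CPM in vehicle, with little spread, and at 48.4, 37.0, 101 and 81.6 CPM with dmPGE2. The inhibitors Skil and Smad7 rose 9.41-fold (31.8 ± 4.50 to 311 ± 109.9 CPM) and 4.84-fold (26.2 ± 4.26 to 127 ± 26.7 CPM). Of 10 Wnt targets 0 rose and 1 fell (all tested, 3.0% and 0.928%), a list too short to set apart from those shares. The member that fell was Fzd7, a Wnt receptor (log2 -0.55 ± 0.12, adjusted p = 0.0260). The call for Fzd7 was lost without mouse 477, 479 or 480 (adjusted p = 0.0664, 0.122 and 0.131).

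Secreted factors showed 4 rises among 26 cytokines, chemokines and receptors (15.4%, against 3.0% of all tested). Vegfa, the vascular growth factor, was at 10.1, 12.2, 10.2 and 7.15 CPM in vehicle and at 118, 103, 165 and 146 CPM with dmPGE2 (13.3-fold, log2 3.73 ± 0.18, adjusted p = 7.52e-08). Hbegf, a ligand of the EGF receptor, rose 5.26-fold from 11.8 ± 3.31 to 66.9 ± 34.2 CPM. Il10, an anti-inflammatory cytokine, was near the floor in vehicle at 0.111 to 1.05 CPM and at 2.11 to 6.48 CPM with dmPGE2. Il1b, an inflammatory cytokine, was the remaining call (log2 2.30), and it was lost without mouse 477, 479 or 480 (adjusted p = 0.116, 0.149 and 0.187). Ptgs2, the inducible cyclooxygenase that makes prostaglandin H2, was at 1.21, 0.330, 7.61 and 8.54 CPM in vehicle and at 74.5, 70.2, 216 and 234 CPM with dmPGE2 (38.9-fold, log2 5.28 ± 0.26, adjusted p = 1.15e-07). It was the called member of 13 genes of prostaglandin synthesis, transport and breakdown (7.69%, against 3.0% of all tested called higher).

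Of 23 homing and adhesion genes 1 rose (4.35%, against 3.0% of all tested) and 1 fell, which is near the share over all genes. S1pr1, the sphingosine phosphate receptor that draws cells into blood, rose 2.90-fold and stood at 56.3, 41.8, 97.5 and 111 CPM in vehicle and at 187, 177, 221 and 252 CPM with dmPGE2. Cxcr4, the receptor that holds stem cells in the marrow, was at 32.6, 35.3, 31.3 and 38.1 CPM in vehicle and at 23.2, 19.7, 22.3 and 15.6 CPM with dmPGE2. The groups did not overlap and the fall was 1.71-fold (log2 -0.77 ± 0.15, adjusted p = 0.00990). Without mouse 480 the value was -0.60 and no longer called (adjusted p = 0.0708).

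Of 19 stem cell surface markers 0 were called by edgeR, with log2 values from -0.37 to 0.33, where 3.93% of all tested genes were called. Of the 19, 3 were at an unadjusted p under 0.05, and DESeq2 and limma-voom called 0. Of 35 stem cell transcription factors 5 rose (Cebpb, Egr1, Hoxa5, Runx1 and Etv6) and 4 fell (Mycn, Nfe2, Gfi1b and Sox18), where 3.0% and 0.928% of all tested did. Log2 values ran from -1.22 to 2.86, with a median of 0.01. Cebpb, a factor of emergency myelopoiesis, rose 7.24-fold and stood at 52.1, 74.1, 109 and 124 CPM in vehicle and at 444, 430.3, 850.3 and 881 CPM with dmPGE2. Hoxa5 rose 2.31-fold, from 10.7 ± 2.96 to 24.8 ± 7.18 CPM. Of 22 apoptosis genes 1 rose (4.55%, against 3.0% of all tested), which is near the share over all genes. It was the survival gene Mcl1, on which stem cells depend (2.26-fold, 395 ± 71.2 to 897 ± 179.8 CPM). Among markers of other cell types, Tfrc of the erythroid list rose 2.19-fold, from 13.6 ± 3.64 to 29.1 ± 2.21 CPM. The summed erythroid markers were at 1829 to 2058 CPM in vehicle and 1698 to 2136 CPM with dmPGE2. Most of that sum was 1 gene, Car2, with a mean of 1799 CPM over the 8 libraries, and 12 of the 17 listed markers were in the count table.

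The falls were smaller and led by other genes. Mycn, which with Myc sustains stem cell growth and survival, was at 347, 320.0, 423 and 447 CPM in vehicle and at 171, 161, 156 and 166 CPM with dmPGE2. The dmPGE2 libraries lay closer together than the vehicle libraries (SD 6.54 against 60.5 CPM), and the fall was 2.33-fold (log2 -1.22 ± 0.08, adjusted p = 2.51e-06). Myc had a log2 value of -0.02 ± 0.05. Rsrp1, an arginine and serine rich protein, fell from 322, 445, 505 and 380.4 CPM to 155, 215, 169 and 154 CPM (2.37-fold, adjusted p = 2.2e-06). Neat1, the long noncoding RNA of paraspeckles, was at 64.3 and 66.2 CPM in vehicle of the young mice, 169.5 and 162 CPM in that of the old ones, and 39.9 to 52.4 CPM in all dmPGE2 libraries. Its call (log2 -1.23 ± 0.21, adjusted p = 0.00463) was lost without mouse 478 or 480 (adjusted p = 0.318 and 0.0858). Other falls of about 2-fold were Mettl18, a histidine methyltransferase (25.1 ± 5.73 to 11.1 ± 1.43 CPM), Med18, a Mediator subunit (25.1 ± 6.44 to 11.7 ± 3.56 CPM), and the hyaluronidase Hyal2 (42.6 ± 5.99 to 22.7 ± 4.38 CPM). Sox18, a vascular factor, fell 2.0-fold (adjusted p = 0.0209), a call lost without mouse 477, 479 or 480 (adjusted p = 0.143, 0.119 and 0.172).

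Gene structure, which the comparison did not use, was set beside the calls. The median span of a gene was 11.1 kb among those that rose, 6.72 kb among those that fell and 21.0 kb over all tested. After merging overlapping exons, the median number was 5, 4 and 9, and 3 or fewer exons were counted in 32.7%, 44.7% and 14.7%. The median summed exon length was 3075, 2104 and 2861 bases, so the genes that rose were shorter in span and not in exon sequence. Symbols of zinc finger genes made up 3.52% of the rises, 14.6% of the falls (18 of 123) and 3.04% of all tested. Another risen gene lay within 100 kb of 16.3% of the genes that rose, 9.76% of those that fell and 9.85% of all tested. These shares were looked at after the calls were known and carry no test.

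A further question was whether old cells responded like young ones. The dmPGE2 effect differed between ages for 24 of 13834 genes (0.173%; interaction term, 2 pairs per age, 2 residual degrees of freedom), 10 with the higher and 14 with the lower signed value in old mice. Without the block 4 were called, with both dates in the fit 5, and with DESeq2 53. The count turned on single mice, with 1078 calls without mouse 477, 127 without 478, 5 without 479 and 9 without 480, each from a fit in which the lone pair of an age is assumed to vary like the pairs of the other. Both ages enter the main comparison too, so the values of each are given side by side. The median log2 change of all 398 genes that rose was 0.77 in young and 0.83 in old mice.

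Plk2, a kinase of the stress response, rose by log2 2.92 ± 0.10 in young and 1.38 ± 0.09 in old mice (adjusted p of the difference = 0.00107). Its vehicle levels were 39.8 and 27.1 CPM in the young mice and 172 and 264 CPM in the old ones, and its dmPGE2 levels 271, 228, 489 and 632 CPM. So the old mice were higher in both arms and had the smaller ratio. The same pattern of levels held for Fos (log2 2.13 in young, 1.13 in old), Socs3 (3.92 and 2.66) and Btg2 (4.23 and 3.39). Csrnp1, a nuclear factor induced by AXIN1, went the other way: vehicle libraries lay at 37.3 to 55.6 CPM in both ages, and dmPGE2 libraries at 166 and 161 CPM in young and 554 and 521 CPM in old mice. Rgs1 changed by log2 2.92 in young and 2.13 in old mice, and its dmPGE2 levels overlapped between ages. Without any 1 mouse these 6 differences kept their sign, and those of Btg2 and Rgs1 were no longer called without mouse 479. Across both ages together, the calls of Plk2 and Csrnp1 were lost without mouse 478 (adjusted p = 0.311 and 0.225).

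**Figure D4:**
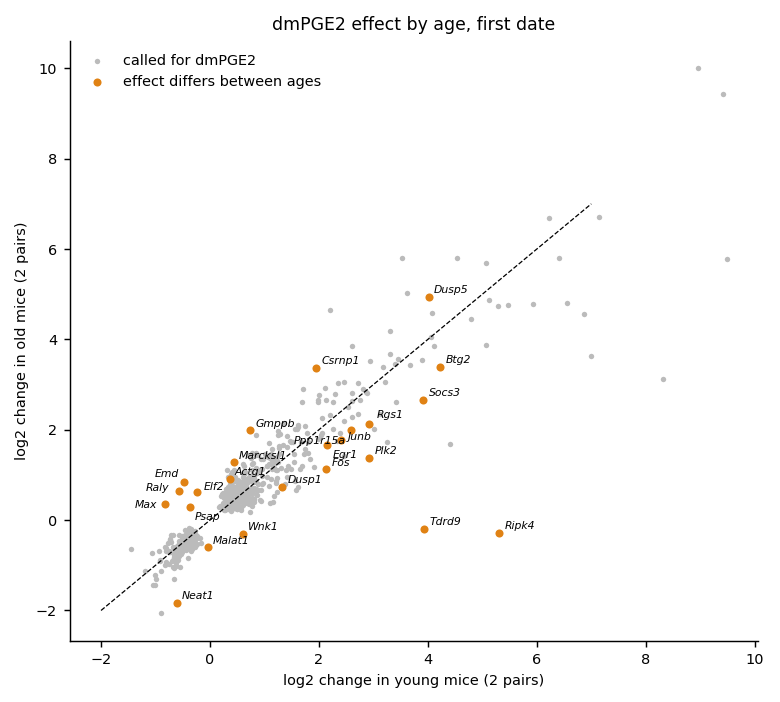
The log2 change with dmPGE2 on the first date in the 2 young mice (horizontal axis) and the 2 old mice (vertical axis) of each gene called for dmPGE2 (grey) or for a difference between ages (orange, with symbols). The dashed line marks equal change; most grey points follow it, and Plk2, Fos, Socs3 and Btg2 lie below it while Csrnp1 and Dusp5 lie above it.

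Set beside the second date, 2 young and 2 old mice with the same treatment labels, the response was mostly of the same direction and smaller. The genes were chosen by their values on the first date, which by itself favours larger changes there. Their medians on the 2 dates are therefore a description, and the same values of the first date enter the test between dates. In a fit of all 16 libraries, 339 of the 398 genes that rose were above 0 on the second date (85.2%; 49.5% of all tested), with a median log2 change of 0.20, and 27 were called higher (all genes, 0.194%). Of the 123 that fell, 93 were below 0 (75.6%; 50.5% of all tested), with a median of -0.08, and 1 was called. The effect differed between dates for 138 of 13942 genes (0.990%), 125 of them among the rises and 10 among the falls, and for 38 genes without the block. Nr4a1 changed by log2 0.83 ± 0.12 on the second date (difference 5.26 ± 0.18, adjusted p = 8.53e-09), Hes1 by 1.41 ± 0.10 (difference 3.59 ± 0.15) and Hey1 by 1.66 ± 0.22 (difference 4.83 ± 0.37). For Crem (0.90 ± 0.21), Pde4b (0.49 ± 0.10) and Dll4 (0.93 ± 0.24) the difference between dates was not called (adjusted p = 0.379, 0.236 and 0.877).

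For the genes that rose, the dates differed more in vehicle than with dmPGE2. The genes were called from the vehicle and dmPGE2 libraries of the first date, so this is a description of their levels and not a test. The vehicle mean was higher on the second date for 372 of the 398 genes that rose (93.5%; 46.2% of all tested), and for 182 every vehicle library of the second date stood above every one of the first (45.7%; 5.85% of all tested). The median log2 ratio of the second over the first date was 0.47 in vehicle and -0.17 with dmPGE2. Nr4a1 averaged 71.8 ± 36.4 CPM in vehicle of the first date and 1826 ± 512 CPM in that of the second, and 4582 ± 1267 and 3190.4 ± 482 CPM with dmPGE2 (SD, n = 4 each). Hes1 averaged 22.1 ± 12.9 and 194 ± 88.7 CPM in vehicle, and 679 ± 339 and 497 ± 156 CPM with dmPGE2. Dusp5 averaged 17.1 ± 2.56 and 269.6 ± 82.4 CPM in vehicle. For the genes that fell the order was reversed: 12 of 123 had the higher vehicle mean on the second date (9.76%), and Mycn averaged 384 ± 60.5 CPM in vehicle of the first date and 188 ± 44.7 CPM in that of the second. Summed markers of 5 other cell types were higher in every vehicle library of the second date than in any of the first: neutrophil markers as given above, mast cell and basophil markers at 499 to 4333 CPM against 13.7 to 28.6 CPM, monocyte markers at 1075 to 2056 against 653 to 837 CPM, erythroid markers at 2260 to 4188 against 1829 to 2058 CPM, and T and NK cell markers at 251 to 463 against 93.6 to 199 CPM. Those of 3 others overlapped between dates: megakaryocyte markers at 1352 to 3347 against 2003 to 3557 CPM, B cell markers at 365 to 1114 against 351 to 1191 CPM, and endothelial markers at 118 to 183 against 151 to 188 CPM. On the first date the erythroid sum was mostly Car2, as given above. The summed stem cell markers were lower on the second date, at 4276 to 5777 CPM in vehicle. The part of these cells, and of whatever step the dates mark, in the difference was not tested.

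**Figure D5:**
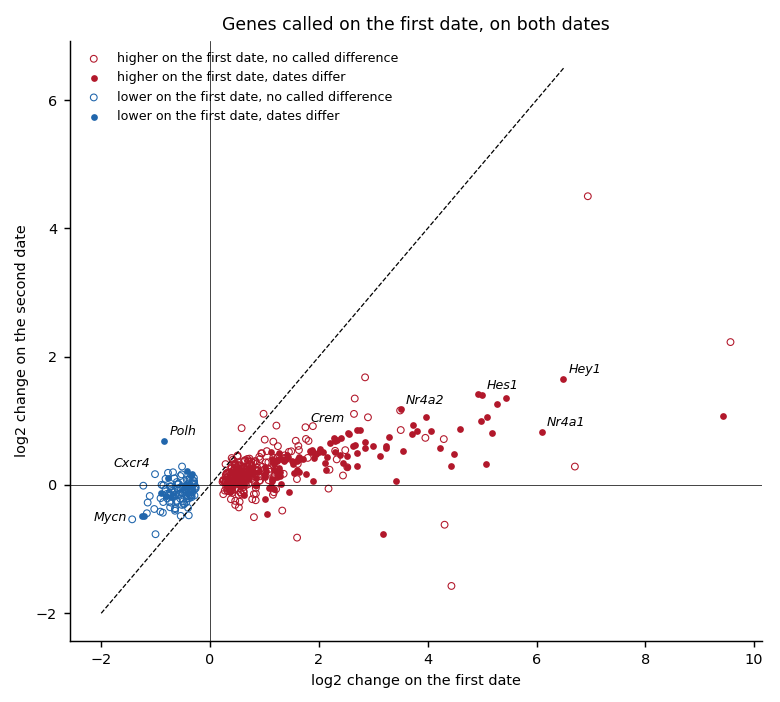
The log2 change with dmPGE2 on the first date (horizontal axis) and on the second (vertical axis) of the genes called on the first, red for rises and blue for falls; filled points are genes whose effect differed between dates. The dashed line marks equal change, and the filled red points lie below it, with Nr4a1 at 6.09 and 0.83.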

How the data were processed

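The deposited table holds read counts per gene, made by the authors with STAR 2.5.2b and featureCounts of Subread 1.5.1 on build mm10, per the submitters' processing notes. Neither the annotation nor the strand setting is named in the sources used here, so reads of overlapping and antisense genes cannot be told apart. Of the lines, 14829 name a gene and 2504 were empty and left out. Counts were tested with edgeR 4.0.16 in R 4.3.3 (TMM scaling, filter on low counts by filterByExpr, robust quasi-likelihood fit, Benjamini-Hochberg adjustment over all tested genes). The main design had mouse as a block and 1 dmPGE2 term (3 residual degrees of freedom). SE is the log2 change divided by the square root of the F statistic. The pipeline was tested on simulated data. CPM values are scaled by TMM, and those of the second date by the factors of all 16 libraries.

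The labels pair both libraries of a mouse. Their deviations from the group means correlated at 0.514 to 0.660, and each vehicle library correlated best with the dmPGE2 library of its own mouse.

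Named genes were the 16 largest rises and 12 largest falls among calls at 0.05 with the same direction in all 4 mice and an average log2 CPM of 2 or more, the called members of a list with the smallest p (4 at most), the 6 genes with the smallest p for age, the 6 largest differences between dates in each direction, and set members such as the receptors. The members and lists were chosen with earlier results of these data known. Alternatives were DESeq2 1.42.0, limma-voom (limma 3.58.1), median-ratio scaling, no filter, no robust step, no block, each mouse left out, and all 16 libraries together.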

Additional observations from a re-analysis of the deposited data

Results flagged for a closer look

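A pair of comparisons tested the difference between groups itself. The dmPGE2 effect differed between ages for 24 genes. As old minus young on the log2 scale, the named genes were Plk2 at -1.54, Socs3 at -1.26, Fos at -1.0, Btg2 at -0.84, Rgs1 at -0.79 and Csrnp1 at 1.42.

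The effect differed between dates for 138 genes. As first minus second date on the log2 scale, the genes with the higher value on the first date were Nr4a1 (5.26), Hey1 (4.83), Atf3 (4.76), Id1 (4.37), Dusp8 (4.13) and Klf4 (4.08). Those with the lower value were Polh (-1.55), Ccbl2 (-1.01), Cxcr4 (-0.88), Rpp25l (-0.78), Rsrp1 (-0.77) and Mycn (-0.74). Polh, a DNA polymerase that copies past damage, had a log2 value of -0.85 on the first date and 0.69 on the second. Ccbl2 had -0.34 on the first date, which was not called, and 0.67 on the second.

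In 2 of 230 groups of 4 libraries, 1 library stood apart from the other 3, where chance marks about 1 in 20 groups. Il10 was at 1.05 CPM in the vehicle library of mouse 479, against 0.111 to 0.220 CPM in the others. Ptger2 was at 0.166 CPM in the dmPGE2 library of mouse 477 and at 0 in the other 3, where 3 counts are the floor.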

How the results depend on the processing

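Calls depended most on the pairing and on single mice. Without the replicate block, 190 genes were called (166 higher, 24 lower), with 4 for age (2 higher and 2 lower in old mice), 38 for the date (37 and 1) and 65 of the list members in place of 140. Leaving out each mouse gave 280 to 590 calls (252 to 429 higher, 28 to 161 lower) and 1 to 8 genes lower on the first than on the second date. For the age difference, added after seeing the data, it gave 5 to 1078 calls (1 to 406 higher, 4 to 672 lower). Lower calls numbered 68 with all 16 libraries, 197 with DESeq2 and 202 with a dmPGE2 term for each age averaged, an alternative chosen after seeing the data that gave 725 calls in all. A minimum of 1.5-fold left 309 genes (256 higher, 53 lower). Age differences numbered 53 with DESeq2 (29 higher, 24 lower) and 5 with all libraries (2 and 3), and date differences 242 with DESeq2 (211 and 31). Median-ratio scaling, no filter, no robust step and limma-voom gave 499 to 533 calls. None of the dmPGE2 changes of 114 tested named genes changed sign under the alternatives run. Calls of 47 were lost without the block, of 11 with all libraries and of 8 to 18 without a mouse. Depth limits genes near the floor, such as Ptger2.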

Other observations

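Several groups outside the signalling genes had few but named calls, where 3.93% of all tested genes were called (3.0% higher, 0.928% lower). Of 31 splicing factors and SR proteins 5 rose and 3 fell. Srsf5, an SR protein, rose 2.45-fold from 176 ± 13.6 to 435 ± 60.6 CPM (SD, n = 4), and the RNA helicase Ddx5 rose 1.64-fold, while Luc7l3 fell by 0.67 on the log2 scale. Of 29 chaperones 3 rose, among them Hspa5, the main chaperone of the endoplasmic reticulum (924 ± 116 to 1591 ± 380.3 CPM). Of 23 histone modifiers 2 rose, the demethylase Kdm6b (2.36-fold) and Jmjd6 (2.0-fold). Of 25 glycolysis and hypoxia genes 3 rose, with Egln3, an oxygen-sensing prolyl hydroxylase, at 3.25-fold. Of 38 genes taken as markers of ageing in stem cells 4 rose (Jun, Fos, Amotl2 and Gpr183) and 1 fell (Plscr2). The call for Gpr183 was lost without mouse 479 or 480 (adjusted p = 0.127 and 0.171), that for Amotl2 without 480 (adjusted p = 0.0689) and that for Fos without 478. None of 73 ribosomal protein genes (median log2 -0.29 in young, 0.04 in old mice) and none of 45 oxidative phosphorylation genes (-0.24 and 0.01) was called by edgeR, DESeq2 or limma-voom, with 4 and 6 at an unadjusted p under 0.05.

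Among the genes that rose, 3 were at 0 counts in all 4 vehicle libraries and were singled out after their values were seen. Trh, the precursor of thyrotropin-releasing hormone, was at 4.27, 2.74, 7.10 and 7.37 CPM with dmPGE2, at least 30.3-fold higher than a floor of 3 counts per library. Ramp3, a partner of calcitonin-family receptors, was at 4.88, 4.71, 5.08 and 4.60 CPM, at least 27.2-fold higher. Adra2a, an adrenergic receptor, was at 0.692 to 0.997 CPM, at least 4.84-fold higher. On the second date, vehicle means were 0.777 ± 0.694 CPM for Trh, 2.03 ± 0.675 CPM for Ramp3 and 0.0809 ± 0.162 CPM for Adra2a (SD, n = 4).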
